A study of Mus musculus with 16 samples.

Results

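The annexins are a family of calcium-dependent phospholipid-binding proteins, and 8 of their genes, Anxa1, Anxa2, Anxa3, Anxa4, Anxa5, Anxa6, Anxa7 and Anxa11, were followed by gene symbol through RNA sequencing of mouse rotator cuff muscle. All 8 were found among the 11710 genes of the deposited count table, and all 8 were among the 11709 genes tested. The series holds 16 samples in 4 groups of 4: C57BL/6J mice (BL6) left unoperated, BL6 mice after tenectomy and denervation of the muscle, and the same pair of groups in MRL/MpJ mice (MRL). Tenectomy removes the tendon and denervation the nerve supply, so an operated muscle lacked both, and no group had only 1 of these. The MRL strain closes ear punches and some other injuries unusually well, whereas BL6 serves widely as a laboratory standard. The labels give no allele, transgene or drug for any group; the age and sex of the animals and the time since surgery were not used here. The labels do not say that the samples came from separate animals, so p-values measure the spread between these samples, which may be partly technical.

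An annexin binds the negatively charged lipids of a membrane through a core of conserved repeats when calcium rises, and its variable N-terminal part decides which partners it holds. In muscle fibres the family is best known for membrane repair: where the sarcolemma is torn, the calcium that enters recruits annexins, among them those coded by Anxa1, Anxa2, Anxa5 and Anxa6, which form a cap over the wound together with dysferlin. Annexins are also expressed by macrophages, fibroblasts, endothelial cells and fat cells. A whole muscle gives the sum over its cells, so fewer cells of a type and less RNA per cell cannot be told apart in any value below.

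Total counts were 24323862 to 43552964 per sample, and levels are CPM, the counts of a gene per 1000000 counts of its library, scaled by TMM factors unless said otherwise. The 6 myofibre markers examined (Acta1, Ckm, Myh4, Myh1, Tnnt3 and Mylpf) summed to between 49269 and 146718 CPM in every sample. Every sample thus held skeletal muscle, but these markers do not tell which muscle it was. In each of the 4 groups 1 library stood apart in markers of cells other than myofibres or in mitochondrial share. Replicate 4 of operated BL6 had the highest summed level of the 8 macrophage markers, 528 CPM against 83.4 to 157 in the other samples of its group, and of the 7 fibroblast and mesenchymal progenitor markers, 5538 against 1070 to 1752 CPM. Replicate 1 of unoperated MRL had 312 CPM of macrophage markers against 75.5 to 97.5 in the rest of its group. Replicate 1 of unoperated BL6 had 142 CPM of macrophage markers against 38.3 to 57.4, and 1470 CPM of fibroblast markers against 635 to 896. Replicate 4 of operated MRL had 309 CPM of the 6 endothelial markers against 582 to 685, and mitochondrial genes took 11.8% of its counts against 20.1% to 24.9%. Where stated, results are given with all samples, without these 4, and without the 3 other than unoperated BL6 replicate 1. Operated BL6 replicate 2 differed in myofibre markers, with 126585 CPM against 49269 to 88922 in the rest of its group. That library was left out only alone.

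Surgery raised 6 of the 8 annexins in BL6 and lowered the other two. Anxa2 rose most, 4.16-fold, followed by Anxa5, Anxa3, Anxa1, Anxa4 and, by a smaller amount, Anxa7. Anxa11 fell by 1.88 on the log2 scale and Anxa6 by 0.52. All 8 passed edgeR's quasi-likelihood test (called: adjusted p under 0.05), as did 67.9% of all genes tested, 35.1% higher and 32.8% lower. In the MRL strain 5 of the 8 were called, where 45% of all genes were: Anxa2, Anxa3, Anxa4 and Anxa5 rose, as 22.3% of all genes did, and Anxa11 fell, as 22.7% did. Operated and unoperated samples did not overlap for any of the 8 annexins in BL6, nor for 56.8% of all genes, and for these 5 annexins in MRL, against 33.7% of all genes. The median log2 fold change of the 8 annexins was 1.46 in BL6 and 0.67 in MRL, beside 0.04 and 0.01 over all genes. Without the 3 or the 4 libraries that stood apart 8 annexins were called in BL6 and 6 in MRL, where Anxa6 was added. Calls over all genes moved too in fits with other settings or several libraries left out. They ran from 7375 to 8143 in BL6, in place of 7950, and from 3925 to 7446 in MRL, in place of 5272.

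**Figure D1:**
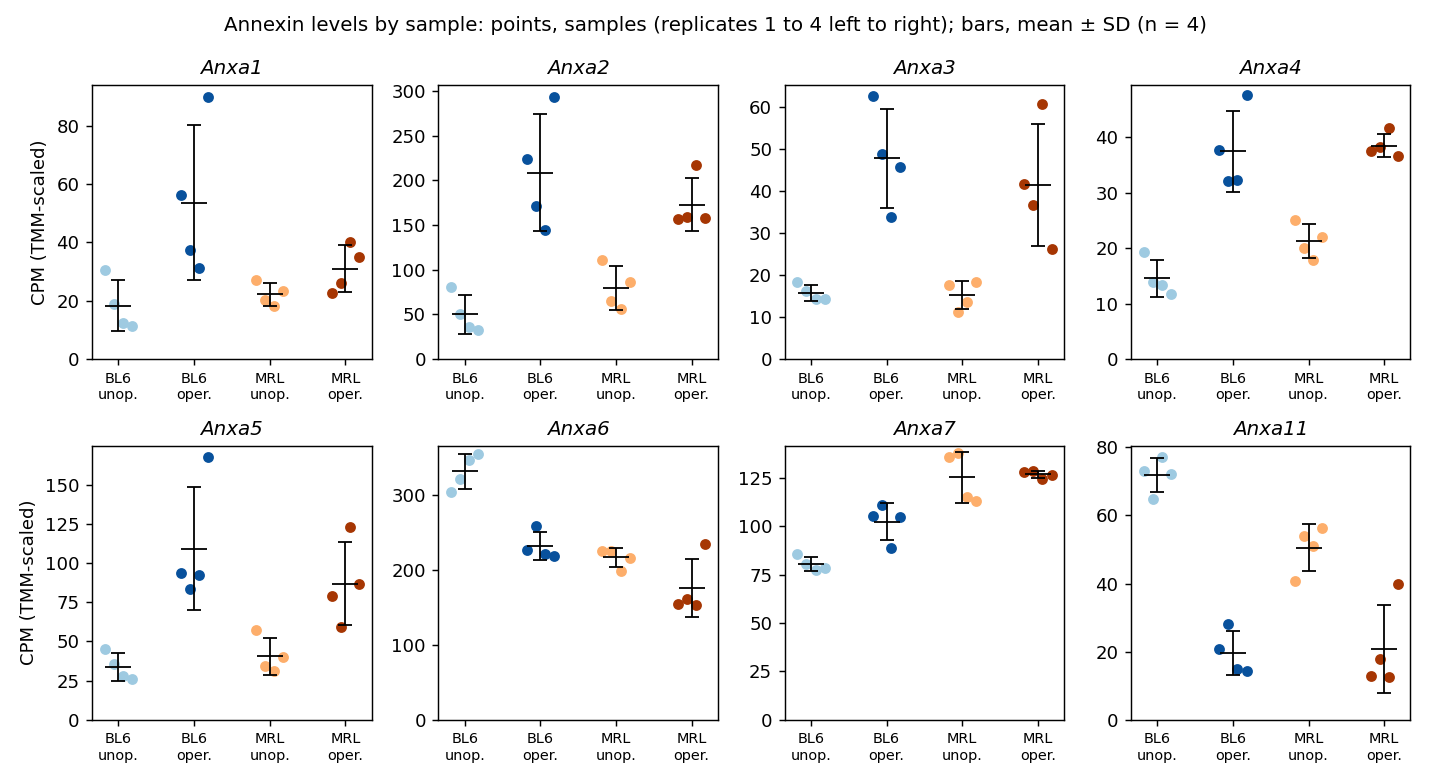
Level of each annexin in every sample, in TMM-scaled CPM on the vertical axis, for the 4 groups (BL6 or MRL, unoperated or operated); points are samples, with replicates 1 to 4 from left to right, and bars show the mean and SD of 4 samples. Anxa2, Anxa3, Anxa4 and Anxa5 lie higher in every operated sample than in every unoperated sample of the same strain, and Anxa11 lies lower.

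Anxa2 codes for annexin A2, which binds the S100 protein coded by S100a10 in a complex at the cell surface and under the membrane, where it also serves as a docking site for plasminogen activator. The gene (ENSMUSG00000032231) lies on the plus strand of GRCm38 at chr9:69453620-69491795. It held 80.9, 50.9, 35.8 and 33.0 CPM in unoperated BL6 replicates 1 to 4 and 225, 172, 145 and 294 CPM after surgery. In MRL it held 111, 65.6, 55.9 and 85.8 CPM without surgery and 157, 159, 217 and 158 CPM with it. Every operated sample lay above every unoperated sample of its strain, and operated BL6 replicate 4 was the highest of all 16. The log2 fold change was 2.06 ± 0.30 (SE, adjusted p = 5.35e-05, edgeR) in BL6 and 1.12 ± 0.29 (adjusted p = 0.00776) in MRL. Without the 3 libraries these were 1.82 and 1.35, and without the 4 they were 2.15 and 1.35.

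Anxa5 codes for annexin A5, the protein that in labelled form is used to detect phosphatidylserine on dying cells and that assembles into ordered arrays on damaged membrane. It lies on the minus strand at chr3:36448923-36475894 (ENSMUSG00000027712). Its unoperated BL6 samples held 45.1, 35.6, 27.7 and 26.0 CPM and its operated BL6 samples 93.7, 83.3, 92.4 and 168 CPM. The MRL samples held 57.4, 34.3, 30.9 and 39.9 CPM unoperated and 78.8, 59.5, 123 and 86.4 CPM operated. The groups did not overlap within either strain, though the lowest operated MRL sample was only just above the highest unoperated one. Surgery gave a log2 fold change of 1.70 ± 0.28 (SE, adjusted p = 0.000111, edgeR) in BL6 and 1.10 ± 0.27 (adjusted p = 0.00622) in MRL. Without the 3 libraries these were 1.39 and 1.30, and without the 4 they were 1.56 and 1.30.

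Anxa1 codes for annexin A1, a glucocorticoid-regulated protein that acts through formyl peptide receptors to limit leukocyte entry and that joins the repair cap in muscle. It lies at chr19:20373428-20390944 on the minus strand (ENSMUSG00000024659). In BL6 it went from 30.6, 19.0, 12.4 and 11.2 CPM to 56.3, 37.3, 31.1 and 89.9 CPM. In MRL it held 27.1, 20.4, 18 and 23.5 CPM unoperated and 22.7, 26.0, 40.1 and 35.0 CPM operated. The BL6 groups were separate by a narrow margin, between unoperated replicate 1 and operated replicate 3, while the MRL groups overlapped. The log2 fold change in BL6 was 1.55 ± 0.34 (SE, adjusted p = 0.00107, edgeR), 1.16 (adjusted p = 0.00442) without the 3 libraries and 1.52 (adjusted p = 0.000261) without the 4. In MRL it was 0.48 ± 0.34 (adjusted p = 0.25), so a rise there was not called. The receptor genes Fpr1 and Fpr2 were not analysed here.

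Anxa3 and Anxa4 code for smaller annexins; annexin A3 is abundant in neutrophils and vessel-lining cells, and annexin A4 is best known from secretory epithelia, where it binds and stiffens membranes. Anxa3 (ENSMUSG00000029484, chr5:96793339-96845966, plus strand) held 14.2 to 18.4 CPM in unoperated and 33.8 to 62.6 CPM in operated BL6. In MRL it held 11.2 to 18.3 CPM unoperated and 41.7, 36.7, 60.7 and 26.2 CPM operated. Its rises in the 2 strains were nearly equal, with log2 fold changes of 1.60 ± 0.24 (SE, adjusted p = 6.1e-05, edgeR) in BL6 and 1.45 ± 0.24 (adjusted p = 0.000902) in MRL. Anxa4 (ENSMUSG00000029994, chr6:86736840-86793584, minus strand) went from a mean of 14.6 ± 3.30 (SD, n = 4) to 37.5 ± 7.26 CPM in BL6 and from 21.3 ± 3.10 to 38.5 ± 2.16 CPM in MRL. The operated means of Anxa4 were thus close to each other, while its unoperated level was higher in MRL. Its log2 fold changes were 1.36 ± 0.16 (SE, adjusted p = 1.65e-05, edgeR) and 0.85 ± 0.16 (adjusted p = 0.00155), with 1.2 and 0.96 without the 3 libraries and 1.36 and 0.96 without the 4.

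Anxa6 codes for annexin A6, the one family member with a doubled core, which links membrane to the actin cytoskeleton and is a modifier of muscular dystrophy in mice. It lies at chr11:54979108-55033445 on the minus strand (ENSMUSG00000018340). Its levels were 304, 321, 347 and 354 CPM in unoperated BL6 and 227, 259, 221 and 219 CPM in operated BL6. Unoperated MRL held 226, 226, 199 and 216 CPM, and operated MRL 155, 162, 153 and 234 CPM. The BL6 groups were far apart, and in MRL the operated samples lay lower except replicate 4, which was above all unoperated ones. In BL6 the log2 fold change was -0.52 ± 0.13 (SE, adjusted p = 0.00316, edgeR). In MRL it was -0.30 ± 0.13 (adjusted p = 0.0744) with all samples and -0.47 (adjusted p = 0.00137) without operated replicate 4. DESeq2 called the MRL value with all samples, at an adjusted p of 0.0293.

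Anxa7 and Anxa11 code for the annexins with long N-terminal regions rich in glycine and proline; annexin A7 (synexin) fuses membranes and is present in muscle as a larger splice form, and annexin A11 tethers RNA granules to lysosomes and is mutated in some motor neuron disease and myopathy. Anxa7 (ENSMUSG00000021814, chr14:20455260-20480133, minus strand) held 85.7, 80.4, 77.6 and 78.7 CPM in unoperated BL6 and 105, 111, 88.9 and 105 CPM in operated BL6. In MRL it held 136, 138, 115 and 113 CPM without and 128, 129, 124 and 126 CPM with surgery. A small rise in BL6, with a log2 fold change of 0.35 ± 0.10 (SE, adjusted p = 0.00515, edgeR), stood beside 0.02 ± 0.10 (adjusted p = 0.899) in MRL, where the groups overlapped. The counts are per gene, so the splice forms were not told apart.

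Anxa11 (ENSMUSG00000021866, plus strand, chr14:25842156-25886804) had the largest fall of the family. It went from 73.1, 64.9, 77.0 and 72.2 CPM to 20.7, 28.1, 14.9 and 14.3 CPM in BL6. In MRL it went from 40.8, 54.1, 51.0 and 56.2 CPM to 13, 18, 12.5 and 39.8 CPM. All operated samples lay below all unoperated samples of their strain, but operated MRL replicate 4 only by a small margin. The log2 fold change was -1.88 ± 0.31 (SE, adjusted p = 0.000131, edgeR) in BL6 and -1.27 ± 0.31 (adjusted p = 0.00541) in MRL. Without operated MRL replicate 4 the MRL value was -1.80, close to that of BL6. The BL6 and MRL values were -1.79 and -1.90 without the 3 libraries, and the same without the 4. Leaving out operated BL6 replicate 2 gave -2.11 in BL6. Anxa11 shares stretches of up to 657 identical bases with the predicted genes Gm2260 and Gm2274 and overlaps the antisense gene Anxa11os, none of which is in the count table, and the sources used here do not state whether counting used strand, so part of its counts is uncertain. The same limit on strand holds for Anxa1, Anxa2 and Anxa4, each of which overlaps a noncoding gene on the opposite strand. Anxa4 also shares a stretch of 102 bases at 95.1% identity with Ndufs1, which is in the count table. On their own strand Anxa2, Anxa3 and Anxa5 overlap Mir3109, Gm42603 and Mir7009, none of which is in the count table.

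**Figure D2:**
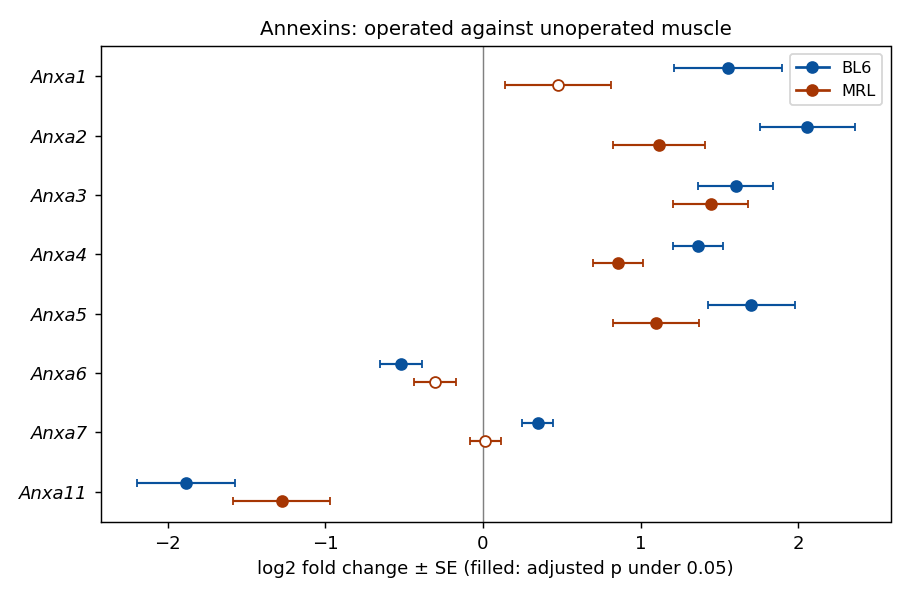
Log2 fold change of operated against unoperated muscle for each annexin in BL6 and in MRL, from edgeR's quasi-likelihood fit; points are estimates, bars are SE, and filled points had an adjusted p under 0.05. Of the 8 annexins, 6 were higher and Anxa6 and Anxa11 lower in BL6, and the open points are Anxa1, Anxa6 and Anxa7 in MRL.

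The 250 bases before the RefSeq start (GRCm38.p6) are shown for the 2 genes with the largest rises in BL6, Anxa2 and Anxa5, and for Anxa11, which fell most, to set the promoters of annexins that moved in opposite directions side by side. Each is written 5′ to 3′ along the gene's own strand, in lower case, with capitals for the only match to the AP-1 motif, TGANTCA, on either strand.
Anxa2, chr9:69453433-69453682, plus strand: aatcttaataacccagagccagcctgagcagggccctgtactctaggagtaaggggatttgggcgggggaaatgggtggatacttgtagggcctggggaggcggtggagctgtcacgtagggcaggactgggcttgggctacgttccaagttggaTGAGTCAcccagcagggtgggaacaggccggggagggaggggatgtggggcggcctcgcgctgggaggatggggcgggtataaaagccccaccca
Anxa5, chr3:36475888-36476137, minus strand: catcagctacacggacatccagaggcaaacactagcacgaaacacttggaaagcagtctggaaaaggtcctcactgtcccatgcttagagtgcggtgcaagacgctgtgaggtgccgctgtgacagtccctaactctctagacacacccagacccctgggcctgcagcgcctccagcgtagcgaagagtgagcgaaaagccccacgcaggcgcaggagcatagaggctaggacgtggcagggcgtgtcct
Anxa11, chr14:25841905-25842154, plus strand: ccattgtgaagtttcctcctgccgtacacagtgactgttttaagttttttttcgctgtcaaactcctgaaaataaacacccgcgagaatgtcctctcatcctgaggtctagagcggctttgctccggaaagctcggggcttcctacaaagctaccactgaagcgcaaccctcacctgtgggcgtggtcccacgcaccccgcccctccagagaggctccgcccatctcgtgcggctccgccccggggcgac
RefSeq windows were matched for 6 of the 8 annexins, with 8 starts between them, and those of Anxa3 and Anxa6 were not. The AP-1 match of Anxa2 began 95 bases before its start, and no other annexin window had one. Over all 32851 windows of this length, 6.75% held TGANTCA. The letters TATAAA occurred before Anxa1, at 32 bases, and before Anxa2, at 17 bases, and in 12.4% of all windows. The GC box GGGCGG, on either strand, occurred in the windows of Anxa2, Anxa7 and Anxa11 and in 32.7% of all windows. The E-box CANNTG was found before Anxa4, Anxa5, Anxa7 and Anxa11 and in 66.2% of windows, and the FoxO motif TGTTTAC before none of the 6 and in 3.17% of windows. These matches describe letters only, and no binding was measured.

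The members were compared with each other per length, as CPM per kilobase of the merged exons of each gene. On this scale Anxa6 had the highest level in every group, with 113 ± 7.99 (SD, n = 4) in BL6 muscle left unoperated and 79.0 ± 6.34 after surgery, and 73.9 ± 4.29 and 60.0 ± 13.3 in the MRL groups. In unoperated BL6 the next gene, Anxa5, was at 18.9 ± 4.91 per kilobase, and its range overlapped that of Anxa11 at 17.4 ± 1.22. Anxa7 followed at 13.5 and Anxa2 at 13.4, with overlapping ranges, and then Anxa1 at 6.29, Anxa3 at 4.31 and Anxa4 at 3.14, each overlapping its neighbour.

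After surgery Anxa5 and Anxa2 came near Anxa6. In operated BL6 Anxa5 reached 61.5 ± 22.1 and Anxa2 55.9 ± 17.6 CPM per kilobase (SD, n = 4), and in operated MRL 48.9 ± 14.9 and 46.3 ± 7.92, and in both strains the ranges of these 3 neighbours overlapped in turn. Below them in operated BL6 came Anxa1 at 18.4, Anxa7 at 17.1, Anxa3 at 13.1 and Anxa4 at 8.07 per kilobase, each overlapping the next. Anxa11, at 4.71 per kilobase, moved from the third place in unoperated BL6 to the last in operated BL6. In unoperated MRL Anxa5 at 22.9, Anxa2 at 21.3 and Anxa7 at 20.9 were not separate, and Anxa11 at 12.2, Anxa1 at 7.64, Anxa4 at 4.58 and Anxa3 at 4.16 followed, with overlap only between the last pair. In operated MRL the order below Anxa2 was Anxa7 at 21.2, Anxa3 at 11.3, Anxa1 at 10.6, Anxa4 at 8.29 and Anxa11 at 5.03, where Anxa7 stood clear and the others overlapped in turn. With the longest transcript as the length in place of merged exons, Anxa2 came first in operated MRL, and Anxa7 rather than Anxa5 came next to Anxa6 in unoperated BL6. On that length Anxa5 ranked 5 in unoperated BL6, 4 in unoperated MRL and 3 in both operated groups, below Anxa2 in each group. The order of Anxa5 and Anxa2 thus depended on the length used.

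**Figure D3:**
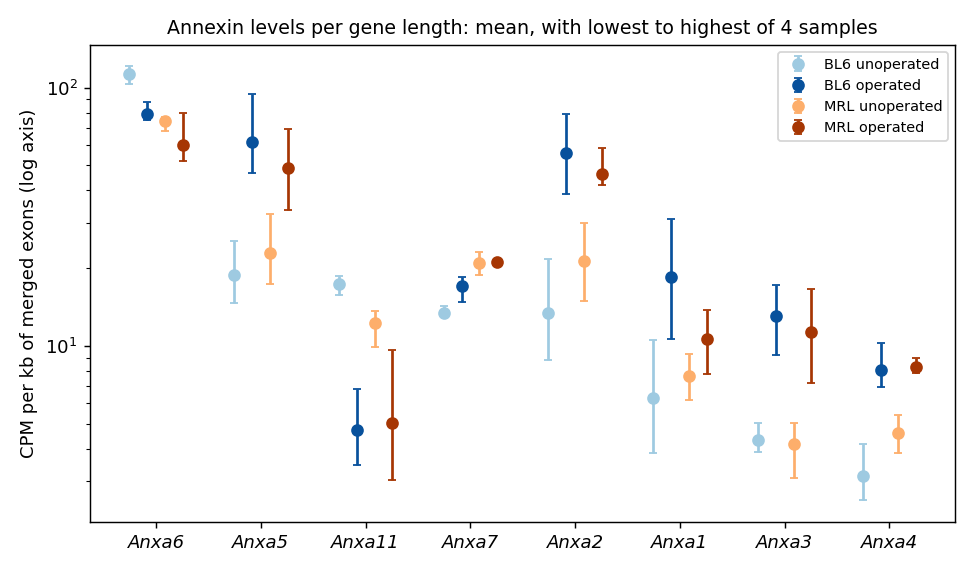
Level of each annexin per gene length, as CPM per kilobase of merged exons on a log axis, in the 4 groups; points are means and bars run from the lowest to the highest of 4 samples. Anxa6 has the highest mean in every group, Anxa5 and Anxa2 approach it in both operated groups, and Anxa11 has the lowest mean in both operated groups.

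The make-up of the family's counts shifted with these changes. The 8 annexins together held 616 ± 27.1 CPM (SD, n = 4) in unoperated and 810 ± 135 CPM in operated BL6, and 572 ± 56.9 and 694 ± 74.1 CPM in MRL. Anxa6 gave 54.0% ± 5.66 of the annexin counts in unoperated BL6 and 29.2% ± 5.44 in operated BL6. Anxa2 went the other way, from 8.05% ± 3.14 to 25.3% ± 3.86. In MRL, Anxa6 went from 38.0% ± 2.11 to 25.4% ± 4.84 and Anxa2 from 13.7% ± 2.95 to 24.9% ± 2.81. The share of Anxa11 went from 11.7% ± 0.877 to 2.46% ± 0.907 in BL6 and from 8.96% ± 1.75 to 2.97% ± 1.67 in MRL.

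The study's title asks how the strains differ in their response to a rotator cuff tear, and this was tested by the interaction, the log2 fold change in MRL minus that in BL6. No annexin was called, where 0.248% of all genes were, and DESeq2 called none either. At an unadjusted p under 0.05 edgeR's quasi-likelihood test counted 4 of the 8 annexins, where 15.7% of all genes passed. These were Anxa1 at -1.08 ± 0.48 (SE, adjusted p = 0.293, edgeR), Anxa2 at -0.94 ± 0.41 (adjusted p = 0.289), Anxa4 at -0.51 ± 0.22 (adjusted p = 0.29) and Anxa7 at -0.33 ± 0.14 (adjusted p = 0.267). In all 4 the fitted rise was smaller in MRL, by an amount that did not pass the adjustment. Anxa3 had the value nearest to 0, at -0.16 ± 0.33 (adjusted p = 0.821).

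These interactions moved with the libraries that stood apart, in both directions. Operated BL6 replicate 4, unoperated BL6 replicate 1 and unoperated MRL replicate 1 each had the highest Anxa1, Anxa2, Anxa4 and Anxa5 of their groups. Without unoperated BL6 replicate 1 alone the interaction was larger, at -1.44 for Anxa1, -1.27 for Anxa2, -0.67 for Anxa4 and -0.78 for Anxa5, the last in place of -0.61. Without the other three it was smaller, at -0.65, -0.47, -0.25 and -0.10 for these genes. Without all 4 libraries, 1 from each group, it was -1.01 for Anxa1, -0.80 for Anxa2, -0.41 for Anxa4 and -0.27 for Anxa5. Anxa7 stayed between -0.36 and -0.26 in these fits. The interaction of Anxa11 was 0.61 with all samples and -0.11 without the 3 or the 4, and that of Anxa6 went from 0.22 to 0.06 and 0.10. No annexin interaction was called in any of these fits of edgeR. The authors' deposited table holds no interaction. Its log2 fold changes with surgery for Anxa1, Anxa2, Anxa4 and Anxa5 were 1.28, 1.85, 1.25 and 1.44 in BL6. In MRL they were 0.68, 1.32, 0.96 and 1.33, so the strains lay nearer each other than in the present fit of all samples.

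The strains were also compared directly; these comparisons use the same samples as the surgery comparisons. Among unoperated muscles 3 of the 8 annexins were called, where 10.4% of all genes were. Anxa7 was higher in MRL, with a mean of 125 ± 13.2 against 80.6 ± 3.61 CPM in BL6 (SD, n = 4) and a log2 difference of 0.64 ± 0.10 (SE, adjusted p = 0.000289, edgeR). Anxa6 was lower in MRL, at 217 ± 12.6 against 331 ± 23.4 CPM (SD, n = 4), a log2 difference of -0.61 ± 0.13 (SE, adjusted p = 0.00642, edgeR). No sample of one strain overlapped the other in either gene, as was so for 25.1% of all genes. When scaled by total counts alone the difference in Anxa6 was -0.47 (adjusted p = 0.0648), no longer called.

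Anxa4 was higher in unoperated MRL by 0.55 ± 0.16 on the log2 scale (SE, adjusted p = 0.0367, edgeR), with overlapping samples. That call was lost on leaving out any 1 of 6 of the 8 unoperated libraries (replicates 2, 3 and 4 of BL6 and 1, 2 and 4 of MRL), with values of 0.45 to 0.58. It was also lost with total counts alone, at 0.68 (adjusted p = 0.0798, edgeR). Without the 3 libraries it was kept, at 0.45 (adjusted p = 0.0458), as it was without the 4, at 0.61 (adjusted p = 0.00182). The authors' deposited table gives Anxa4 a false discovery rate of 0.0529 here. This was the one call in which that table and the present fit differed for the 8 annexins. Anxa11 was lower in every unoperated MRL sample than in every BL6 sample, 40.8 to 56.2 against 64.9 to 77.0 CPM, a separation shared by 25.1% of all genes in 1 direction or the other. Its log2 difference of -0.51 ± 0.30 had an adjusted p of 0.326 in edgeR's test and was not called. Anxa2 differed by 0.67 ± 0.29 (SE, adjusted p = 0.169, edgeR) and was not called. It was called without unoperated BL6 replicate 1, at 0.99 (adjusted p = 0.0346), and without all 4 libraries, at 0.78 (adjusted p = 0.0258). Without the 3 libraries it was 0.46 (adjusted p = 0.294), and without unoperated MRL replicate 1 it was 0.45, neither of them called. Of 16 alternatives 14 left Anxa2 uncalled.

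Among operated muscles Anxa7 was the one annexin called of the 8, where 12.9% of all genes were. Mean Anxa7 was 127 ± 1.91 CPM (SD, n = 4) among MRL and 102 ± 9.43 CPM among BL6 samples, without overlap, a log2 difference of 0.31 ± 0.10 (SE, adjusted p = 0.0457, edgeR); 13.6% of all genes were likewise without overlap. The call was lost on leaving out any 1 of 7 of the 8 operated libraries (all but BL6 replicate 2), with values of 0.25 to 0.32. Anxa6 was at -0.40 ± 0.13 (SE, adjusted p = 0.0631, edgeR), and without operated MRL replicate 4 at -0.57 (adjusted p = 0.00134). Anxa11 differed by 0.10 ± 0.31 (SE) with all samples and by -0.43 without that library, neither of them called. Anxa1, Anxa2, Anxa3 and Anxa5 had log2 differences of -0.79, -0.27, -0.21 and -0.33 and were not called.

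**Figure D4:**
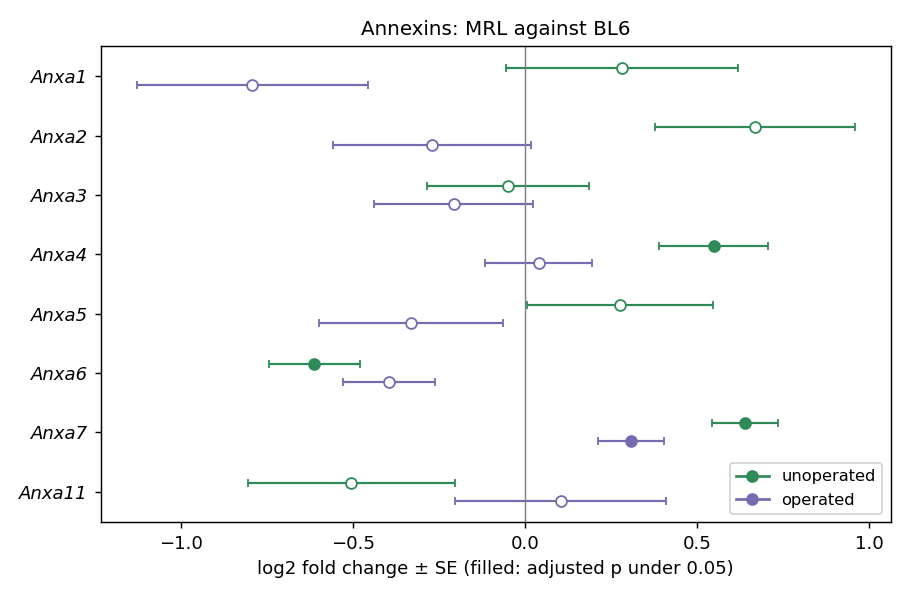
Log2 difference of MRL against BL6 for each annexin in unoperated and in operated muscle, from edgeR's quasi-likelihood fit; points are estimates, bars are SE, and filled points had an adjusted p under 0.05. Anxa7 lies above 0 in both, at 0.64 and 0.31, Anxa6 below 0 in both, at -0.61 and -0.40, and Anxa4 is called in unoperated muscle.

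A further family member in the table, Anxa8, was expressed at a low level. It held 1.04 ± 0.487 CPM in unoperated and 3.92 ± 2.39 CPM in operated BL6 (SD, n = 4), and 1.25 ± 0.431 and 2.68 ± 1.39 CPM in MRL. Its log2 fold change was 1.93 ± 0.46 (SE, adjusted p = 0.00192, edgeR) in BL6, and 1.11 ± 0.45 (adjusted p = 0.0579) in MRL, where the groups overlapped. The authors' deposited table calls the MRL value, at 1.46 with a false discovery rate of 0.00479. Anxa9, Anxa10 and Anxa13 were not analysed here.

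Annexins work with binding partners, and 11 of 15 partner genes listed were tested. Surgery raised all 11 in BL6 and 8 of them in MRL, and lowered none in either, where 35.1% and 22.3% of all genes rose. No interaction was called among them by edgeR or DESeq2, and 7 had an unadjusted p under 0.05 in edgeR's test, as 15.7% of all genes did. Without the 3 libraries that stood apart 10 rose in BL6 and 8 in MRL, and without the 4 it was 11 and 8. The median log2 fold change was 1.55 in BL6 and 1.03 in MRL, beside 0.04 and 0.01 over all genes. S100a10, the partner of annexin A2, held 36.7, 23.0, 15.7 and 16.2 CPM in unoperated and 136, 131, 92.3 and 151 CPM in operated BL6. In MRL it held 55.4, 35.1, 30.8 and 46.2 CPM unoperated and 93.7, 94.8, 140 and 71.1 CPM operated. It rose in both strains without overlap, by a log2 fold change of 2.48 ± 0.29 (SE, adjusted p = 1.63e-05, edgeR) in BL6 and 1.25 ± 0.28 (adjusted p = 0.00357) in MRL. The fitted rise in BL6 was larger than the 2.06 of Anxa2, but these genes were not tested against each other.

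S100a11, whose protein binds annexins A1 and A2, rose by log2 fold changes of 2.44 (BL6) and 1.27 (MRL). S100a6, which codes for calcyclin, rose by 2.19 and 1.06, and S100a4, known from fibroblasts and motile cells, by 2.44 and 1.03. S100a13, linked to release of growth factors without a signal peptide, rose by 1.86 and 1.18, and S100a1, the S100 protein of the muscle fibre itself, by 0.79 and 0.53. The penta-EF-hand genes Sri (sorcin, a partner of annexin A7) and Pdcd6 (a partner of annexins A7 and A11) rose by 1.55 and 0.74 in BL6 and by 1.18 and 0.42 in MRL. Ahnak, a very large scaffold that binds the complex of annexin A2, rose by 0.50 in BL6 and had 0.06 (adjusted p = 0.733, edgeR) in MRL, where its unoperated level was already higher, by 0.63 (adjusted p = 0.00474). Plat, tissue plasminogen activator, and the proteoglycan gene Sdc4 rose by 1.04 and 0.55 in BL6 and were not called in MRL, at 0.55 and 0.08. Plg, Pla2g4a and the receptor genes were not analysed here.

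The genes of membrane repair changed in both directions. Of 19 tested of 20 listed, 6 rose and 8 fell in BL6, where 35.1% of all genes rose and 32.8% fell. In MRL 6 rose and 5 fell, where the shares over all genes were 22.3% and 22.7%, so the counts of this list lay near those of all genes. No interaction was called in edgeR's or DESeq2's test. In edgeR's, 3 of the 19 had an unadjusted p under 0.05, where 15.7% of all genes did. Dysf, which codes for dysferlin, had log2 fold changes of 0.03 ± 0.11 (SE, adjusted p = 0.837, edgeR) and 0.06 ± 0.11 (adjusted p = 0.683) with surgery. It was higher in MRL than in BL6 by 0.57 (adjusted p = 0.00333) unoperated and by 0.60 (adjusted p = 0.00212) operated.

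Members that rose in both strains code for caveola and endocytic recycling proteins, a calpain and a transglutaminase: Cavin1 by 1.61 in BL6 and 1.08 in MRL, Ehd2 by 1.46 and 1.25, Ehd1 by 1.37 and 0.58, Capn2 by 0.67 and 0.39, and Tgm2 by 0.45 and 0.33. Myof, the myoferlin gene, rose by 1.07 in BL6 and had 0.76 (adjusted p = 0.0708, edgeR) in MRL. Members that fell in both strains were Ano5, a muscle scramblase, by 1.84 and 0.82, Capn3, the muscle calpain, by 0.86 and 0.57, Cavin4 by 0.98 and 0.52, Fer1l6 by 1.28 and 1.35, and Vps4a by 0.42 and 0.36. Cav3, the muscle caveolin, was not called in either, at -0.31 (adjusted p = 0.0627, edgeR) and -0.33 (adjusted p = 0.0705). Trim72, which codes for the repair protein MG53, fell by 0.87 in BL6 and had -0.43 (adjusted p = 0.21) in MRL. Bin1 and Capn1 fell by 0.48 and 0.29 in BL6 and were not called in MRL, at -0.39 and -0.21, while Vps4b rose by 0.39 in MRL and was not called in BL6, at 0.19. The count of repair genes called in MRL was 11 with all samples, 16 without operated replicate 4 and 17 without the 3 or the 4 libraries that stood apart. MRL calls over all genes were 5272 with all samples and 6145 without operated replicate 4. They were at most 7446 with other settings or several libraries left out.

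**Figure D5:**
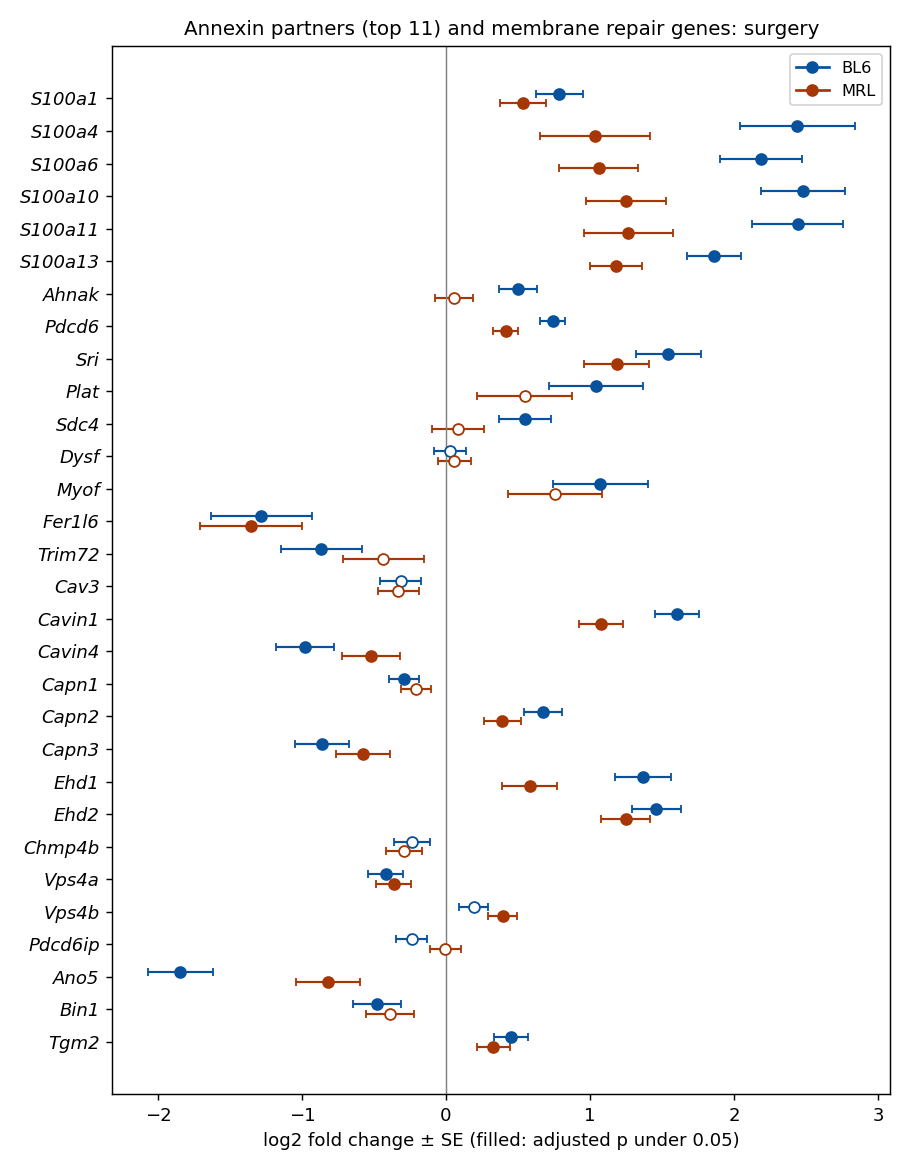
Log2 fold change of operated against unoperated muscle for the 11 annexin partner genes (top) and the 19 membrane repair genes (below) in BL6 and in MRL, from edgeR's quasi-likelihood fit; points are estimates, bars are SE, and filled points had an adjusted p under 0.05. All 11 partner genes lie above 0 in both strains, while the repair genes lie on both sides, from -1.84 for Ano5 to 1.61 for Cavin1 in BL6.

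Markers of other cells were counted beside the annexins, against 35.1% of all genes called higher in BL6 and 22.3% in MRL. The 8 macrophage markers summed to 38.3 to 142 CPM in unoperated and 83.4 to 528 CPM in operated BL6, and to 75.5 to 312 and 127 to 238 CPM in MRL, with 5 of 8 called higher in BL6 and 1 of 8 in MRL. The 7 fibroblast markers summed to 635 to 1470 and 1070 to 5538 CPM in BL6 and to 1270 to 2102 and 1708 to 3122 CPM in MRL, with 4 and 2 called higher. The 6 endothelial markers, with 5 and 6 called higher, summed to 273 to 394 and 537 to 760 CPM in BL6 and to 213 to 301 and 309 to 685 CPM in MRL. All 5 adipocyte markers tested rose in both strains, from sums of 212 to 282 to 1218 to 1676 CPM in BL6 and from 267 to 375 to 1100 to 1918 CPM in MRL. Schwann cell markers rose in 5 of 5 and 4 of 5 cases, with sums of 53.6 to 70.8 and 135 to 334 CPM in BL6 and 38.4 to 83.4 and 63.4 to 228 CPM in MRL. The 4 smooth muscle and pericyte markers all rose in both, from 427 to 495 to 706 to 1139 CPM in BL6 and from 323 to 446 to 594 to 1076 CPM in MRL.

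Of the 6 myofibre markers 3 fell in BL6 and 2 in MRL, the others were not called, and their fitted values ran from -1.18 to 0.17 and from -0.82 to 0.30. Both satellite cell markers tested fell in BL6, and Myod1 fell in MRL, where Pax7 was at 0.21 and not called; 32.8% and 22.7% of all genes fell. The satellite cell sums were 25.7 to 38.6 and 14.8 to 19.5 CPM in BL6 and 17.6 to 23.9 and 12.3 to 20.6 CPM in MRL. The 1 neutrophil marker tested, S100a9, rose in both strains and stayed at or under 6.30 CPM. No marker on these lists was at 0 in any sample. The part of these cell types in the rise or fall of the annexins was not tested.

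For each annexin, the gene outside the family whose profile lay nearest was taken as the one with the smallest root mean square difference in log2 CPM over the 16 samples, each gene centred on its own mean, among 9606 genes. For Anxa2 this was S100a6, one of the partner genes, at 0.16 log2 units, where the median over genes was 0.99. The nearest to Anxa5 was Kctd17 at 0.15, to Anxa1 A4galt at 0.20, to Anxa3 Hspa12b at 0.17 and to Anxa4 Gnb1 at 0.14. Those nearest to the falling genes were Mrpl9 for Anxa6 at 0.10 and Smcr8 for Anxa11 at 0.19, and Pole4 lay nearest to Anxa7 at 0.13. Within the family, Anxa2 and Anxa5 were nearest to each other at 0.28. The nearest annexin to Anxa11 was Anxa6 at 0.71, and to Anxa6 it was Anxa7 at 0.61.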

How the data were processed

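Messenger RNA of rotator cuff muscle (infraspinatus in the series text, supraspinatus in the sample labels) was sequenced in 16 samples. Per the labels' protocols, RNA came from minced muscle by column kit with DNase, with standard Illumina libraries. The submitters' processing notes name FastQC, STAR, edgeR and the build mm10; the counting program, annotation and use of strand are not given in the sources used here. By its values, the count table deposited by the authors is raw: whole numbers, not normalized. The deposited table of comparisons holds the authors' log2 fold changes and p-values with false discovery rates.

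From the counts, edgeR 4.0.16 (R 4.3.3) fitted group means by quasi-likelihood to all 16 samples, with TMM scaling and filterByExpr (minimum count 10), which removed 1 gene. P-values were adjusted by Benjamini-Hochberg over 11709 genes and called under 0.05. The SE is the log2 fold change divided by the square root of F. The fit was tested on simulated data, with 200 of 11710 genes changed in the operated BL6 group. There 75% of 2-fold and 97% of 4-fold changes were recovered. In the real data 67.9% of genes were called for surgery in BL6, so these rates need not hold for that comparison. Levels per kilobase used GENCODE M21 (GRCm38), where 11708 of 11710 IDs matched. Likeness used genes of at least 5 CPM on average and log2 CPM with a prior count of 2. Near copies were sought with BLAST 2.17.0 at 95% identity over 100 bases or more. Promoters were the 250 bases before RefSeq starts (GRCm38.p6). A planned protein comparison was not run.

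The annexins and the gene lists were chosen with earlier results of these data known. Named are all annexins, genes of the partner and repair lists, and the nearest gene to each annexin. Anxa8, Ndufs1 and the predicted, noncoding and marker genes are named outside that rule. Alternatives were RLE size factors, total counts alone, TMM without mitochondrial genes, no filter, DESeq2 1.42.0, a replicate block and leaving out each replicate; leaving out 3 or 4 libraries together was added after seeing the data.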

Additional observations from a re-analysis of the deposited data

Results flagged for a closer look

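Dixon's test at the 95% level was applied to each annexin in each group of 4 samples, and 3 of the 32 sets of samples held 1 sample far from the rest; chance flags about 1 in 20. Anxa2 was at 217 CPM in operated MRL replicate 3, against 157 to 159 CPM in the other samples of the group, a gap of 0.958 of the range. Anxa5 was at 168 CPM in operated BL6 replicate 4, against 83.3 to 93.7 CPM, a gap of 0.877 of the range. Anxa6 was at 234 CPM in operated MRL replicate 4, against 153 to 162 CPM, a gap of 0.888 of the range. Both replicates 4 are among the 4 libraries that stood apart in markers of cells other than myofibres or in mitochondrial share. No annexin had a called difference between the strains in its response to surgery.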

How the results depend on the processing

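The 8 annexins stayed called for surgery in BL6 in every alternative tried, and the count in MRL ran from 5 to 6. Among unoperated samples total counts alone called 1 annexin between strains in place of 3; that scaling shifted the median of all genes by 0.136 for surgery in BL6 and by 0.140 for strain unoperated. Among operated samples the count of 1 became 0 with RLE size factors and with total counts, 2 with TMM without mitochondrial genes, DESeq2 or the 3 or 4 libraries left out, and 0 to 1 without each replicate. For all genes, surgery in MRL gave 3490 to 6145 calls without each replicate, in place of 5272. The interaction of all genes gave 14 calls with total counts, 250 with DESeq2, 67 without the 3 libraries, 54 without the 4 and 1 to 69 without each replicate, in place of 29. Without the 4 libraries 1890 genes differed between unoperated strains, in place of 1216. Repair genes called in MRL numbered 17 without the 3 or the 4 libraries and 5 to 16 without each replicate, lowest without unoperated replicate 2. The cause was not tested.

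Values that changed sign were all uncalled. Without each replicate, the Anxa3 interaction ran from -0.40 to 0.0096, Anxa3 between unoperated strains from -0.16 to 0.070, Anxa4 between operated strains from -0.028 to 0.18, Anxa7 with surgery in MRL from -0.030 to 0.065, and Anxa11 between operated strains from -0.43 to 0.33. The Anxa3 interaction was 0.083 without the 3 libraries and 0.0053 without the 4, and that of Anxa11 -0.11 without either set, where Anxa11 between operated strains was -0.53; Anxa3 between unoperated strains was 0.087 with total counts. Correlations gave no clear sign that replicate numbers pair the samples, though with 4 samples per group they cannot exclude it. Same-numbered samples of different groups correlated at -0.47 to 0.45 over 24 pairs, 12 over 0.1, and 7 best with their own number. With the replicate block, 2 interactions were called over all genes, and annexin counts were 8, 5, 0, 3 and 1, as without it. Of the annexins, Anxa8 had the fewest counts, at 25 to 261.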
